A study of Mus musculus with 5 samples.

Results

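The subject here is the set of 10457 CpG-dense tiles at the ends of mouse genes. The autosomes were divided into fixed tiles of 1 kb, and a tile was taken when 40 or more of its cytosines were listed in all 5 libraries and it lay within 1 kb of either end of a protein coding gene. These tiles were 10457 of the 208207 autosomal tiles with 3 or more shared cytosines, and 69.4% of all tiles that dense. They held 40 to 288 shared cytosines each, with a median of 67, and belonged to 9294 of 20665 autosomal protein coding genes. The level of a tile in a library is the mean percent methylation over its shared cytosines, and a tile over 20% is described as having left the unmethylated state. The rule for the tiles used no levels, though it was set with earlier results of these data known.

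The libraries are reduced representation bisulfite sequencing, an assay that cuts DNA at a CpG-containing site so that CpG-rich sequence is read preferentially. The mice are of the mixed strain C57BL/6x129S6. The control library is muscle, and the other 4 are teratomas, tumours of mixed differentiated tissue that pluripotent cells can form, which arose from embryonic stem cells injected into tetraploid embryos. The stem cells had been grown under conditions labelled P5_2iL, P5_2iL_F, P5_a2iL_1 and P5_LCDM_1, abbreviations that the labels leave unexplained, and the last pair is written P5_a2iL and P5_LCDM below. The labels give no age, sex, passage or cell line, and do not say whether a library is 1 tumour or a pool. There was 1 library per group, so no difference below has a replicate check, no test between conditions was made, and the 4 comparisons with muscle share the same control library.

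CpG islands are stretches where CpG sites have stayed frequent, and most of them sit at gene starts. They are usually free of methylation in every tissue, whereas scattered CpGs elsewhere in the genome are usually methylated. A minority of islands is methylated in normal tissue, including germline genes that are silenced in the body, one parental copy of imprinted genes, and some ends of genes and exons. Islands of developmental regulators are often kept unmethylated by Polycomb proteins and are known to gain methylation in cultured cells and tumours.

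7 promoters show the kinds of tile described below. Each is 300 bases in the direction of the gene, from 250 bases before the RefSeq start to 50 after it, taken from RefSeq GRCm38.p6, which is the mm10 build. Capitals mark the CpG sites. Crb2 and Dmgdh stand for tiles over 20% in all 4 teratomas but not in muscle, Sstr4 for P5_LCDM alone, Fam189a1 for P5_a2iL alone, and Thpo for muscle alone. Slc25a31 and Hoxa5 were over 20% in all 5 libraries, the first nearly complete throughout and the second low in its promoter in muscle and P5_LCDM.
Crb2: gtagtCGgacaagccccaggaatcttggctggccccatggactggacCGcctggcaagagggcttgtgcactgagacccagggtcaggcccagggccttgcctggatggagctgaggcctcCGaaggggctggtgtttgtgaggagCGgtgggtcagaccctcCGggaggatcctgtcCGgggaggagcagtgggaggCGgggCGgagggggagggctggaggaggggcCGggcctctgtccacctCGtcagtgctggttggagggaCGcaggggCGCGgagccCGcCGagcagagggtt
Dmgdh: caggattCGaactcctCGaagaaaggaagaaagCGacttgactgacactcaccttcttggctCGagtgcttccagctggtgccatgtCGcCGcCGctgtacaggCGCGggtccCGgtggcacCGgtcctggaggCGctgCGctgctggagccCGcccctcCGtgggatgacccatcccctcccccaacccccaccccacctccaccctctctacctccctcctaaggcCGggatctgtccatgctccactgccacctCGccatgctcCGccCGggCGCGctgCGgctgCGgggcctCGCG
Sstr4: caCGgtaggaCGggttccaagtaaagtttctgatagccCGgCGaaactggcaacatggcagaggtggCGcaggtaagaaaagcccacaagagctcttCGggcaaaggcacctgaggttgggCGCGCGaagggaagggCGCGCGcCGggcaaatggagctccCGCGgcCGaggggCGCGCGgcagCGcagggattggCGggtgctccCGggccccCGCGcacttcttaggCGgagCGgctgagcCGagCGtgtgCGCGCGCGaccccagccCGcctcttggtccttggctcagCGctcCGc
Fam189a1: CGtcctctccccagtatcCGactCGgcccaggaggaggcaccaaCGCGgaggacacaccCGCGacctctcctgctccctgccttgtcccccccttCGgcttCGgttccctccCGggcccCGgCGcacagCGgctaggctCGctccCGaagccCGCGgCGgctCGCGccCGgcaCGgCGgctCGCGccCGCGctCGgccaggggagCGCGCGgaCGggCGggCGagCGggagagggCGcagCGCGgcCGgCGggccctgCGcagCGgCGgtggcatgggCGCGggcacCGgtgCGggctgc
Thpo: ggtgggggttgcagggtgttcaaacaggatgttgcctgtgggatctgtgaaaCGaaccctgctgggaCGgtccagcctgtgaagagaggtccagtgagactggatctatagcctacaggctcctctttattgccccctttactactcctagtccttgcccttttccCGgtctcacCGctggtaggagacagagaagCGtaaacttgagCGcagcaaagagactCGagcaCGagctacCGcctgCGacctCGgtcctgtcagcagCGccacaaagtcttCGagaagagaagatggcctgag
Slc25a31: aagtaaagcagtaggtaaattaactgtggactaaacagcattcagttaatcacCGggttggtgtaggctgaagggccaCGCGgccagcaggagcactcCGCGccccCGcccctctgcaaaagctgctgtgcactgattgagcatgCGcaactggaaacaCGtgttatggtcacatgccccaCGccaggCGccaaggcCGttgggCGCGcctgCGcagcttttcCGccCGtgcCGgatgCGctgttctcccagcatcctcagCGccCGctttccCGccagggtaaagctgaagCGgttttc
Hoxa5: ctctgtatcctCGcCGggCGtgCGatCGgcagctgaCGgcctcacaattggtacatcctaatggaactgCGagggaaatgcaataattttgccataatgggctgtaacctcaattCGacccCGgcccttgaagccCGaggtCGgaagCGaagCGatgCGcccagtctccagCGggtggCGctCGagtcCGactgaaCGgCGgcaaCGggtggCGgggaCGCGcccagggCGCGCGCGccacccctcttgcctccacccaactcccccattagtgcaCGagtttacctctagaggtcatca
The Crb2 promoter (chr2:37775999-37776298, plus strand, 15 CpG sites) had 13 shared cytosines with a mean of 3.85% in muscle, and in the teratomas 83.8% (P5_2iL), 91.8% (P5_2iL_F), 53.5% (P5_a2iL) and 58.4% (P5_LCDM). The Dmgdh promoter (chr13:93674186-93674485, plus strand, 25 CpG sites) had 31 shared cytosines with a mean of 2.28% in muscle, and in the teratomas 48.96% (P5_2iL), 30.6% (P5_2iL_F), 46.7% (P5_a2iL) and 20.2% (P5_LCDM). The Sstr4 promoter (chr2:148395127-148395426, plus strand, 35 CpG sites) had 56 shared cytosines with a mean of 5.36% in muscle, and in the teratomas 10.7% (P5_2iL), 9.45% (P5_2iL_F), 18.7% (P5_a2iL) and 54.3% (P5_LCDM). In the first pair muscle was the lowest library, and in the third P5_LCDM stood above the rest. The Fam189a1 promoter (chr7:65156479-65156778, minus strand, 47 CpG sites) had 46 shared cytosines with a mean of 4.35% in muscle, and in the teratomas 0.543% (P5_2iL), 3.84% (P5_2iL_F), 47.98% (P5_a2iL) and 8.15% (P5_LCDM). The Thpo promoter (chr16:20734462-20734761, minus strand, 13 CpG sites) had 21 shared cytosines with a mean of 67.5% in muscle, and in the teratomas 6.05% (P5_2iL), 5.68% (P5_2iL_F), 14.3% (P5_a2iL) and 8.29% (P5_LCDM). The Slc25a31 promoter (chr3:40708621-40708920, plus strand, 22 CpG sites) had 38 shared cytosines with a mean of 90.6% in muscle, and in the teratomas 98.2% (P5_2iL), 97.6% (P5_2iL_F), 95.7% (P5_a2iL) and 94.4% (P5_LCDM). The Fam189a1 promoter was raised in P5_a2iL, the Thpo promoter was high in muscle, and the Slc25a31 promoter was methylated in every library. The Hoxa5 promoter (chr6:52204538-52204837, minus strand, 29 CpG sites) had 53 shared cytosines with a mean of 4.94% in muscle, and in the teratomas 92.6% (P5_2iL), 65.1% (P5_2iL_F), 72.6% (P5_a2iL) and 3.14% (P5_LCDM). These Hoxa5 levels divide the libraries into muscle with P5_LCDM on one side and the other 3 teratomas on the other.

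The files list 4017125 (muscle) to 5323090 (P5_2iL_F) cytosines, of which 3079380 autosomal ones are shared by all 5 and 783932 lie in the tiles. Most of the tiles were unmethylated everywhere. The median level was 0.712% in muscle, and in the teratomas 0.763% (P5_2iL), 0.794% (P5_2iL_F), 0.926% (P5_a2iL) and 0.868% (P5_LCDM), and 9640 tiles (92.2%) were at 20% or less in all 5. In muscle 452 tiles (4.32%) were over 20%, where 82.0% of all 208207 autosomal tiles were. In P5_2iL 581 tiles (5.56%) were over 20%, against 84.0% of all tiles. In P5_2iL_F 578 tiles (5.53%) were over 20%, against 84.3% of all tiles. The shares at gene ends are thus far under the genome-wide ones, and those of P5_2iL and P5_2iL_F differ by 3 tiles. In P5_a2iL 561 tiles (5.36%) were over 20%, against 85.3% of all tiles. In P5_LCDM 684 tiles (6.54%) were over 20%, against 84.8% of all tiles. Muscle had the lowest count and P5_LCDM the highest. The 4605 equally dense tiles farther than 1 kb from a gene end were over 20% much more often, from 31.9% in muscle to 37.5% in P5_LCDM. At the border of the rule, tiles up to 500 bp beyond the 1 kb limit had 16.9% (muscle) to 23.0% (P5_LCDM) over 20%, and the outermost ones inside it, over 500 bp from a gene end, 11.9% (muscle) to 17.0% (P5_LCDM). Tiles with 38 or 39 cytosines had 14.1% to 16.0% over 20%, and those with 40 or 41 had 11.6% to 12.7%.

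The order of the libraries was not the same at every height. Over 80% methylation were 132 tiles in muscle, and in the teratomas 215 (P5_2iL), 201 (P5_2iL_F), 168 (P5_a2iL) and 165 (P5_LCDM). P5_LCDM therefore had the most tiles over 20% but fewer strongly methylated ones than P5_2iL or P5_2iL_F. Among all 208207 autosomal tiles, 42.0% were over 80% in muscle, and in the teratomas 64.1% (P5_2iL), 61.9% (P5_2iL_F), 48.9% (P5_a2iL) and 38.7% (P5_LCDM). P5_2iL and P5_2iL_F were the highest there too, so their place over 80% is not particular to gene ends. Among the 9640 tiles at 20% or less in all 5, the mean level was 1.36% in muscle, and in the teratomas 1.83% (P5_2iL), 1.84% (P5_2iL_F), 2.09% (P5_a2iL) and 2.45% (P5_LCDM). These low levels ranked muscle lowest and P5_LCDM highest, as the counts over 20% did. A low level in bulk tissue can come from a few methylated cells or from sparse methylation in many, and the files cannot tell these apart.

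The 817 tiles over 20% in 1 or more libraries fell into a few recurring combinations. The largest held 377 tiles (3.61% of all) over 20% in all 5 libraries. P5_LCDM alone accounted for 118 tiles, and 84 were over 20% in all 4 teratomas but not in muscle. P5_2iL and P5_2iL_F without the others held 25 tiles, P5_a2iL alone 22, muscle alone 16, P5_2iL alone 14 and P5_2iL_F alone 11. A tile methylated in 1 teratoma was thus most often methylated in all 5 libraries, and single-library tiles came mainly from P5_LCDM. The median levels of the all-5 tiles were 61.2% in muscle, and in the teratomas 84.8% (P5_2iL), 82.7% (P5_2iL_F), 74.9% (P5_a2iL) and 76.4% (P5_LCDM). In the tiles of P5_LCDM alone the medians were 7.48% in muscle, and in the teratomas 9.85% (P5_2iL), 9.89% (P5_2iL_F), 11.6% (P5_a2iL) and 24.99% (P5_LCDM). P5_2iL and P5_2iL_F shared 543 tiles over 20%, which is 93.5% of the first and 93.9% of the second, and 2 of all 10457 tiles differed by 25 points or more between them. Muscle and P5_LCDM shared 417, or 92.3% of the muscle tiles and 61.0% of the P5_LCDM tiles.

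**Figure D1:**
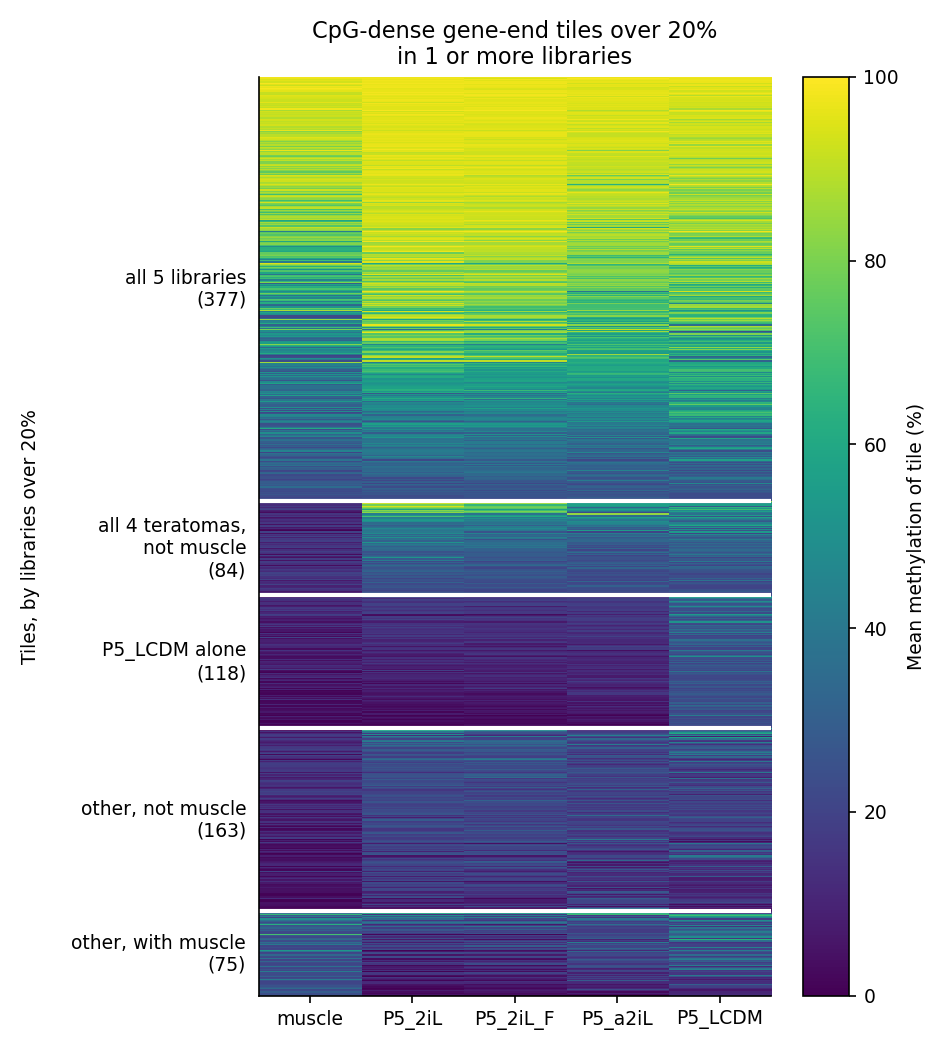
Mean methylation in percent (colour) of the 817 tiles over 20% in 1 or more of the 5 libraries (columns), each thin line being 1 tile. Blocks are the combinations of libraries over 20%, with the number of tiles, and 377 tiles are over 20% in all 5 while the 118 tiles of P5_LCDM alone have a median of 24.99% there.

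The files hold a percent per cytosine without a read count, so the precision was judged from the 2 strands, which are listed separately. A strand mean covers the shared cytosines assigned to that strand in the tile. The 2 means can cover different CpG sites, so their difference also includes variation between sites. The root mean square difference between the strand means of a tile was 3.20 (P5_2iL) to 4.20 (P5_a2iL) percentage points over 10434 tiles, and 9.52 (P5_2iL) to 13.2 (P5_a2iL) points among tiles over 20%. On each strand alone, 390 of the 452 muscle tiles, 517 of 581 in P5_2iL, 503 of 578 in P5_2iL_F, 463 of 561 in P5_a2iL and 576 of 684 in P5_LCDM were over 20%. Between 82.5% and 89.0% of the calls thus stand on either strand. Close to the threshold, 37 tiles in muscle and 85 in P5_LCDM were between 18% and 20%, and 31 and 62 between 20% and 22%.

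Position along the gene separated the tiles more than the library did. Of 7997 tiles within 1 kb of a known gene start, 182 (2.28%) in muscle and 331 (4.14%) in P5_LCDM were over 20%, with 257 to 272 in the other 3 libraries. Of 332 tiles that touch only the other end of a gene, 158 (47.6%) in muscle and 178 (53.6%) in P5_LCDM were. These 3' end tiles thus make up 140 of the 377 tiles over 20% in all 5 libraries, while they are few among all tiles. The remaining 2128 tiles belong to genes whose direction is not in the promoter table used here. Where the start lay inside the tile, 1.61% (muscle) to 3.19% (P5_LCDM) of 5832 tiles were over 20%. With the start over 500 bp and up to 1 kb away, it was 8.68% (muscle) to 13.5% (P5_LCDM) of 438. Denser tiles were over 20% less often. Of 4035 tiles with 40 to 59 cytosines, 7.68% in muscle and 10.3% in P5_LCDM were, and of 948 tiles with 120 or more, 0.844% and 3.16%.

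Averaged over all start tiles, methylation was lowest in the 100 bases before the start, at 1.17% in muscle, and in the teratomas 1.66% (P5_2iL), 1.63% (P5_2iL_F), 1.86% (P5_a2iL) and 1.88% (P5_LCDM). Between 900 and 1000 bases inside the gene it was 3.35% in muscle, and in the teratomas 4.85% (P5_2iL), 4.76% (P5_2iL_F), 5.16% (P5_a2iL) and 6.21% (P5_LCDM). The curve is a valley in each library, and in all 4 teratomas it lies above muscle. In the tiles of P5_LCDM alone, the first 100 bases of the gene stood at 3.10% in muscle, and in the teratomas 4.71% (P5_2iL), 4.78% (P5_2iL_F), 6.94% (P5_a2iL) and 22.1% (P5_LCDM). These tiles were chosen for a P5_LCDM mean over 20%, so a raised level near the start follows in part from that choice. Between 900 and 1000 bases inside the gene they stood at 13.9% in muscle and 36.6% in P5_LCDM. The steps hold different tiles, 26 at the first 100 bases and 31 at the later step. In the tiles over 20% in all 4 teratomas, also chosen by level, the first 100 bases stood at 6.49% in muscle, and in the teratomas 33.5% (P5_2iL), 30.8% (P5_2iL_F), 24.3% (P5_a2iL) and 32.7% (P5_LCDM).

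**Figure D2:**
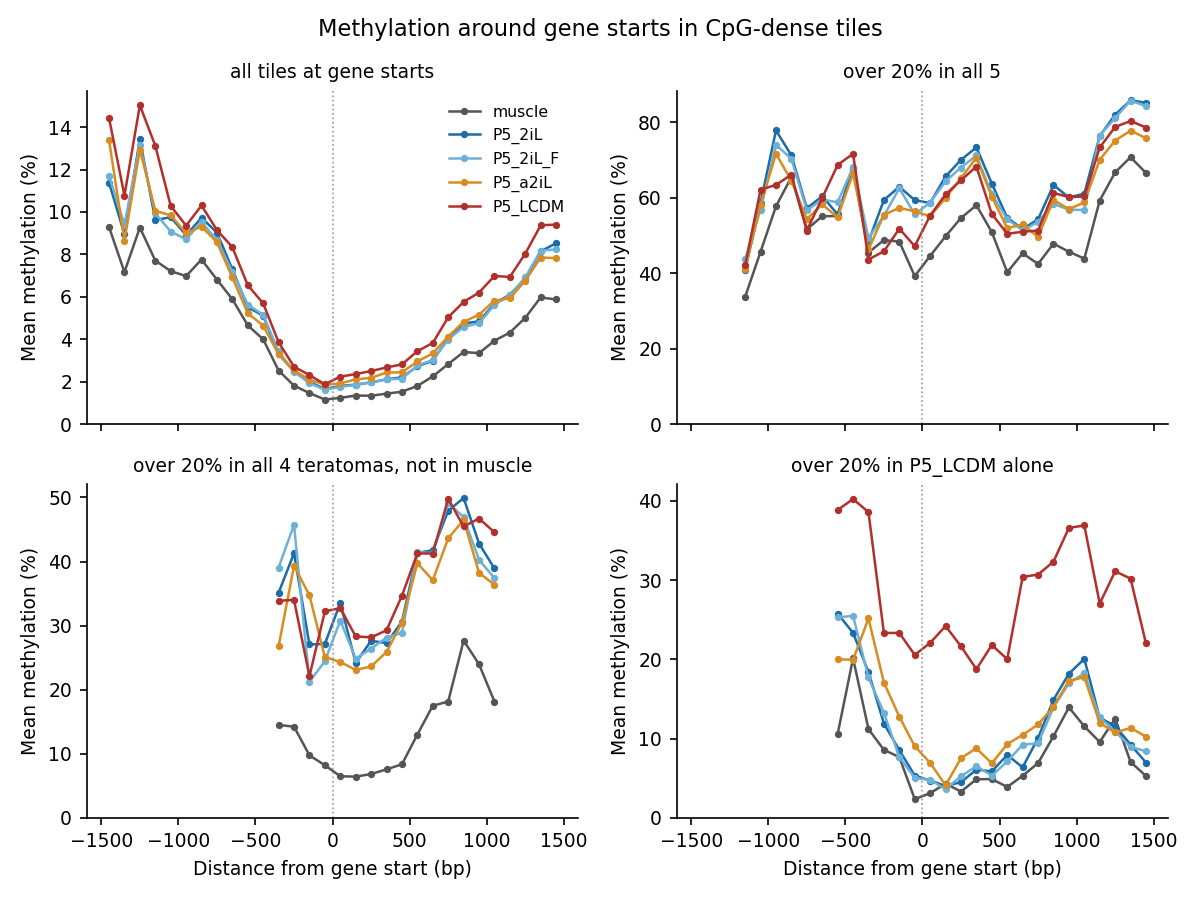
Mean methylation in percent against distance from the gene start in bp (negative values lie outside the gene), in steps of 100 bp, 1 line per library, for steps with 10 or more tiles. The 4 panels are all start tiles, which fall to 1.17% in muscle and 1.88% in P5_LCDM just before the start, and the start tiles over 20% in all 5 libraries, in all 4 teratomas but not muscle, and in P5_LCDM alone.

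Against muscle, 10005 tiles were at 20% or less in the control and could cross upward. In P5_2iL 182 did (1.82%), where 22.5% of all autosomal tiles at 20% or less in muscle did. In P5_2iL_F 180 did (1.80%), against 22.7% of all such tiles. In P5_a2iL 153 did (1.53%), against 23.1%, and in P5_LCDM 267 did (2.67%), against 22.8%. The genome-wide shares are nearly alike in the 4 teratomas, while at gene ends the P5_LCDM count was the highest. Equally dense tiles farther than 1 kb from a gene end crossed upward in 5.55% (P5_2iL), 5.87% (P5_2iL_F), 6.18% (P5_a2iL) and 9.95% (P5_LCDM) of 3137, so P5_LCDM was the highest there too. Many of these crossings were shallow, with a median difference of 16.3 (P5_2iL_F) to 18.6 (P5_LCDM) points, and 118, 120, 104 and 170 tiles ended at 30% or less in P5_2iL, P5_2iL_F, P5_a2iL and P5_LCDM. On each strand alone, muscle at 20% or less and the teratoma over it, 158 tiles crossed in P5_LCDM, 108 in P5_2iL, 93 in P5_2iL_F and 61 in P5_a2iL. A level over 50% was reached by 20 tiles in P5_LCDM, 18 in P5_2iL, 13 in P5_2iL_F and 8 in P5_a2iL.

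The tiles with the largest differences from muscle included genes of white blood cells, epithelia and the developing brain. Coordinates below are those of the tiles in mm10. The tile at the end of Snx20, a sorting nexin of white blood cells, measured 3.02% in muscle, and in the teratomas 82.7% (P5_2iL), 73.7% (P5_2iL_F), 23.3% (P5_a2iL) and 40.7% (P5_LCDM), at chr8:88627001-88628000. In P5_a2iL its strand means differed, at 44.5% and 4.52%, so that the level there is uncertain. Gltpd2, which has a glycolipid transfer domain, measured 13.3% in muscle, and in the teratomas 91.7% (P5_2iL), 85.4% (P5_2iL_F), 54.95% (P5_a2iL) and 52.2% (P5_LCDM), at chr11:70520001-70521000. Crb2, a Crumbs protein of epithelial polarity, measured 17.9% in muscle, and in the teratomas 73.98% (P5_2iL), 73.3% (P5_2iL_F), 48.8% (P5_a2iL) and 53.1% (P5_LCDM), at chr2:37776001-37777000. In each of these P5_2iL was the highest library and muscle the lowest. A tile shared by the predicted gene LOC102637806 and Gbx2, a homeobox gene of the midbrain-hindbrain border, measured 10.01% in muscle, and in the teratomas 84.9% (P5_2iL), 86.7% (P5_2iL_F), 60.1% (P5_a2iL) and 63.1% (P5_LCDM), at chr1:89932001-89933000. Its strands in P5_LCDM were 44.9% and 75.3%. The next tile, which touches both genes too, measured 4.13% in muscle, and in the teratomas 16.4% (P5_2iL), 18.3% (P5_2iL_F), 14.3% (P5_a2iL) and 22.97% (P5_LCDM), at chr1:89931001-89932000. The tile after that, the densest of Gbx2 with 156 cytosines, measured 0.7200% in muscle, and in the teratomas 0.392% (P5_2iL), 0.985% (P5_2iL_F), 5.19% (P5_a2iL) and 0.768% (P5_LCDM), at chr1:89930001-89931000. Over these 3 neighbouring tiles the level went from 60.1% or more in each teratoma to 5.19% or less. Zfp503, a zinc finger gene of the developing brain and limb, measured 18.7% in muscle, and in the teratomas 89.8% (P5_2iL), 82.7% (P5_2iL_F), 44.99% (P5_a2iL) and 84.3% (P5_LCDM), at chr14:21990001-21991000.

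Further tiles over 20% in all 4 teratomas lay at genes of varied function. Acyp1, an acylphosphatase, measured 12.7% in muscle, and in the teratomas 78.8% (P5_2iL), 66.2% (P5_2iL_F), 57.3% (P5_a2iL) and 56.4% (P5_LCDM), at chr12:85289001-85290000. Nbeal2, which platelets need for their granules, measured 8.87% in muscle, and in the teratomas 81.6% (P5_2iL), 69.4% (P5_2iL_F), 49.3% (P5_a2iL) and 47.9% (P5_LCDM), at chr9:110625001-110626000, and its tile also touches Nradd. The next tile, at the start of Nradd, measured 3.04% in muscle, and in the teratomas 59.3% (P5_2iL), 47.5% (P5_2iL_F), 12.7% (P5_a2iL) and 23.3% (P5_LCDM), at chr9:110624001-110625000, and it crossed in P5_2iL, P5_2iL_F and P5_LCDM while P5_a2iL stayed lower. H13, a signal peptide peptidase, measured 17.1% in muscle, and in the teratomas 93.1% (P5_2iL), 76.5% (P5_2iL_F), 52.99% (P5_a2iL) and 28.9% (P5_LCDM), at chr2:152707001-152708000, at its 3' end. Rbmxl2, a testis gene for an RNA-binding protein, measured 19.3% in muscle, and in the teratomas 58.4% (P5_2iL), 55.8% (P5_2iL_F), 57.1% (P5_a2iL) and 68.96% (P5_LCDM), at chr7:107210001-107211000, just under the threshold in muscle. Efcab15 with Fmnl1 measured 10.6% in muscle, and in the teratomas 82.9% (P5_2iL), 78.3% (P5_2iL_F), 31.9% (P5_a2iL) and 63.7% (P5_LCDM), at chr11:103199001-103200000, a tile at 3' ends only. Its strand means in P5_a2iL were 35.6% and 4.76%. They can cover different CpG sites, and the level there is uncertain. The tile of 6330409D20Rik measured 6.35% in muscle, and in the teratomas 74.8% (P5_2iL), 80.02% (P5_2iL_F), 37.7% (P5_a2iL) and 56.3% (P5_LCDM), at chr2:32741001-32742000, with strands at 52.8% and 93.3% in P5_2iL and at 61.8% and 93.8% in P5_2iL_F. In this group P5_2iL or P5_2iL_F was the highest, except at Rbmxl2, where P5_LCDM was. Gm40847 and Gm38699 on chromosome 12 also rank in this class, with 5.11% in muscle and 57.3% in P5_LCDM at Gm40847. They belong to a cluster of near-identical predicted genes where reads of copies can be confused, so these values are uncertain.

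**Figure D3:**
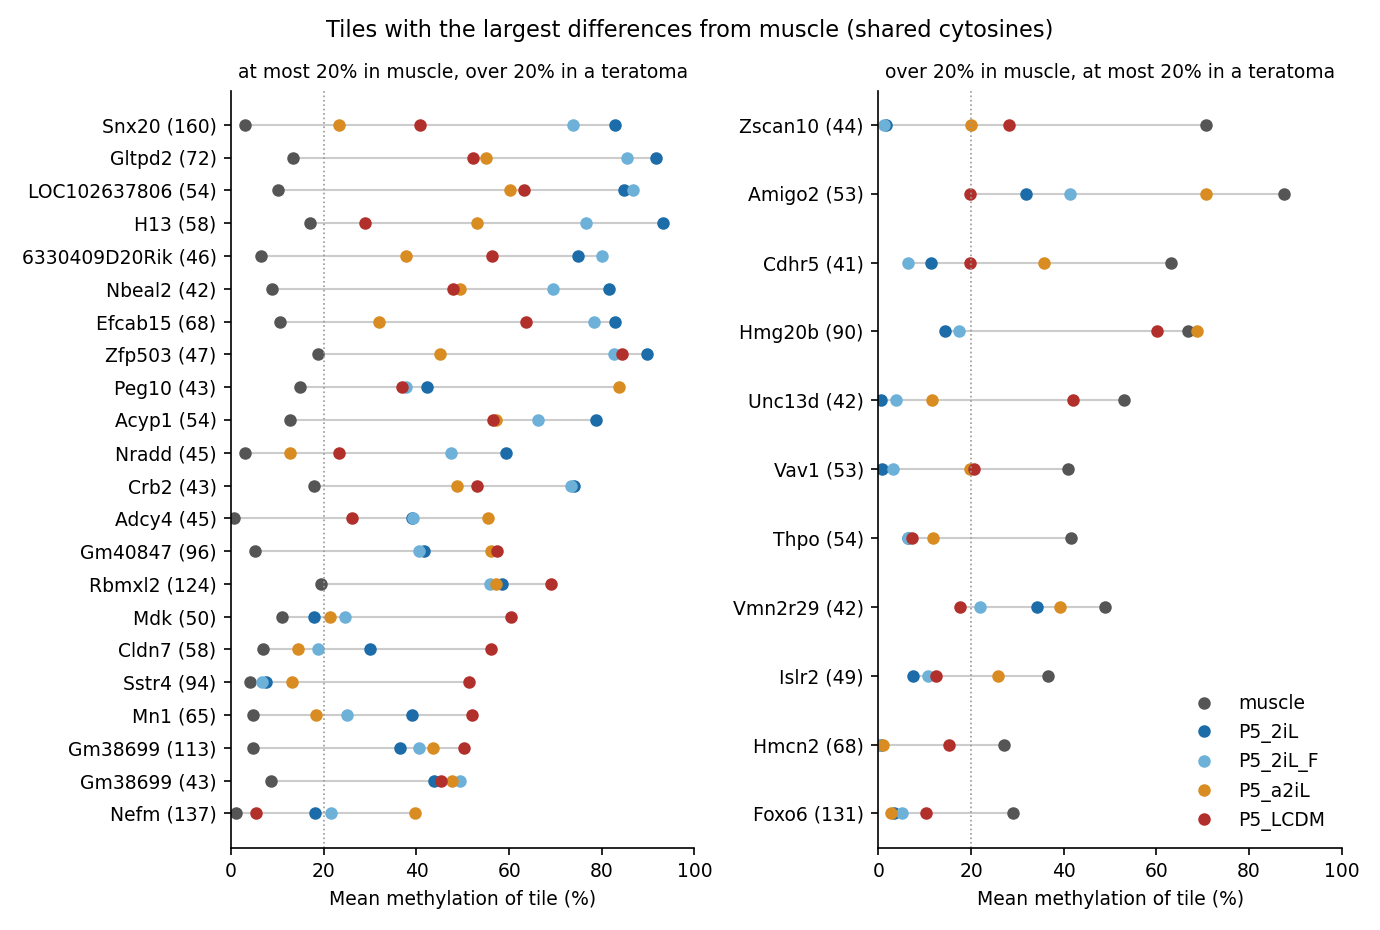
Mean methylation in percent (horizontal axis) of the tiles with the largest differences from muscle in each teratoma, 1 point per library, with the number of shared cytosines after the gene and a dotted line at 20%. On the left, muscle is the lowest library at each tile, and on the right it is the highest except at Hmg20b, where P5_a2iL measured 68.7% and muscle 66.9%.

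P5_a2iL had the fewest upward crossings at the 20% threshold, but at a threshold of 10% it had 431, more than P5_2iL (368) and P5_2iL_F (346). At a few tiles it was the highest library. Peg10 and Sgce, imprinted genes read from a shared start region, measured 14.95% in muscle, and in the teratomas 42.2% (P5_2iL), 37.7% (P5_2iL_F), 83.8% (P5_a2iL) and 36.9% (P5_LCDM), at chr6:4747001-4748000. Adcy4, an adenylyl cyclase, shares a tile with Ripk3, a kinase of necroptosis, which measured 0.5996% in muscle, and in the teratomas 39.01% (P5_2iL), 39.2% (P5_2iL_F), 55.4% (P5_a2iL) and 26.02% (P5_LCDM), at chr14:55783001-55784000. Nefm, the medium neurofilament of neurons, measured 0.967% in muscle, and in the teratomas 18.2% (P5_2iL), 21.6% (P5_2iL_F), 39.6% (P5_a2iL) and 5.33% (P5_LCDM), at chr14:68124001-68125000. At these tiles P5_a2iL was above the other 3 teratomas, and at Nefm P5_LCDM was the lowest of them. Of the 22 tiles over 20% in P5_a2iL alone, Fam189a1 measured 2.26% in muscle, and in the teratomas 0.641% (P5_2iL), 3.62% (P5_2iL_F), 25.8% (P5_a2iL) and 5.95% (P5_LCDM), at chr7:65156001-65157000. Zfp454, a zinc finger gene, measured 3.57% in muscle, and in the teratomas 18.1% (P5_2iL), 13.97% (P5_2iL_F), 33.2% (P5_a2iL) and 10.1% (P5_LCDM), at chr11:50887001-50888000.

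P5_LCDM had the most tiles that no other library shared. Its largest differences from muscle, beside those above, included Sstr4, a somatostatin receptor, which measured 4.02% in muscle, and in the teratomas 7.49% (P5_2iL), 6.701% (P5_2iL_F), 13.05% (P5_a2iL) and 51.3% (P5_LCDM), at chr2:148395001-148396000. Mdk, the growth factor midkine, shares a tile with Dgkz and measured 11.1% in muscle, and in the teratomas 17.9% (P5_2iL), 24.6% (P5_2iL_F), 21.4% (P5_a2iL) and 60.3% (P5_LCDM), at chr2:91931001-91932000. Cldn7, a claudin of epithelial tight junctions, measured 6.93% in muscle, and in the teratomas 30.1% (P5_2iL), 18.7% (P5_2iL_F), 14.5% (P5_a2iL) and 56.1% (P5_LCDM), at chr11:69965001-69966000. Mn1, a transcriptional co-regulator, measured 4.77% in muscle, and in the teratomas 39.01% (P5_2iL), 24.97% (P5_2iL_F), 18.4% (P5_a2iL) and 52.02% (P5_LCDM), at chr5:111418001-111419000, with strands at 34.5% and 69.0% in P5_LCDM. P5_LCDM exceeded the other 3 teratomas at all 4, and Sstr4 was the only one of them at 20% or less in the rest. The 118 tiles over 20% in P5_LCDM alone ran from 20.01% to 54.6% in that library, with 32 at 22% or less and 32 over 30%, and 69 were over 20% on each strand alone.

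Genes for developmental transcription factors were frequent among the tiles of P5_LCDM alone. Taking the Hox, other homeobox, Pax, Sox, T-box, Gata and forkhead genes together, 403 of the 10457 tiles (3.85%) touched such a gene, and 26 of the 118 tiles (22.03%) did. Of the 69 tiles over 20% on each strand, 15 (21.7%) did. Among the 84 tiles over 20% in all 4 teratomas it was 4 (4.76%), and among the 377 over 20% in all 5 it was 11 (2.92%). The factor genes are therefore a larger share of the tiles of P5_LCDM alone than of these other combinations. These families were grouped after levels had been seen, so the shares describe the tiles and are no independent evidence.

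Named examples span several body regions. Pou2f3, the regulator of chemosensory tuft cells, measured 8.796% in muscle, and in the teratomas 18.9% (P5_2iL), 14.7% (P5_2iL_F), 14.6% (P5_a2iL) and 54.6% (P5_LCDM), at chr9:43205001-43206000. Foxd2, a forkhead gene, measured 8.17% in muscle, and in the teratomas 14.4% (P5_2iL), 7.54% (P5_2iL_F), 16.3% (P5_a2iL) and 47.6% (P5_LCDM), at chr4:114907001-114908000. Irx5, an Iroquois homeobox gene of heart and limb, measured 14.6% in muscle, and in the teratomas 5.98% (P5_2iL), 6.63% (P5_2iL_F), 3.64% (P5_a2iL) and 39.6% (P5_LCDM), at chr8:92360001-92361000. In these 3 P5_LCDM was at least 25 points above muscle. At the Hoxd cluster, whose genes pattern the limb and trunk, the tile of Hoxd11 measured 8.81% in muscle, and in the teratomas 9.23% (P5_2iL), 9.304% (P5_2iL_F), 11.3% (P5_a2iL) and 36.6% (P5_LCDM), at chr2:74687001-74688000, at its 3' end. That of Hoxd10 measured 3.84% in muscle, and in the teratomas 13.9% (P5_2iL), 9.45% (P5_2iL_F), 11.5% (P5_a2iL) and 27.8% (P5_LCDM), at chr2:74683001-74684000. Otx1, a forebrain homeobox gene, measured 4.95% in muscle, and in the teratomas 14.3% (P5_2iL), 14.6% (P5_2iL_F), 18.5% (P5_a2iL) and 31.9% (P5_LCDM), at chr11:21993001-21994000. Sox7, a gene of blood vessel and endoderm development, measured 9.16% in muscle, and in the teratomas 11.2% (P5_2iL), 14.2% (P5_2iL_F), 17.8% (P5_a2iL) and 30.4% (P5_LCDM), at chr14:63942001-63943000. By the choice of the combination, muscle and the other teratomas lay at 20% or less at all of these. Signalling genes among the 118 tiles included Nodal, an embryonic axis signal, with 1.995% in muscle, and in the teratomas 7.05% (P5_2iL), 6.69% (P5_2iL_F), 2.45% (P5_a2iL) and 24.9% (P5_LCDM), at chr10:61418001-61419000. Shh, the Sonic hedgehog ligand, measured 4.45% in muscle, and in the teratomas 18.6% (P5_2iL), 12.5% (P5_2iL_F), 16.98% (P5_a2iL) and 28.6% (P5_LCDM), at chr5:28457001-28458000. Bmp4, a bone morphogenetic protein, measured 5.63% in muscle, and in the teratomas 9.96% (P5_2iL), 9.77% (P5_2iL_F), 12.7% (P5_a2iL) and 24.5% (P5_LCDM), at chr14:46389001-46390000, near its start. The tile at the 3' end of Bmp4 was over 80% in all 5 libraries, with 90.4% in muscle, and in the teratomas 89.8% (P5_2iL), 87.6% (P5_2iL_F), 84.03% (P5_a2iL) and 87.2% (P5_LCDM), at chr14:46384001-46385000. Cdh1, the epithelial cadherin, measured 7.93% in muscle, and in the teratomas 16.96% (P5_2iL), 7.21% (P5_2iL_F), 11.7% (P5_a2iL) and 29.9% (P5_LCDM), at chr8:106604001-106605000. Apart from the 3' end of Bmp4, the tiles of these signalling and adhesion genes lay closer to the threshold than that of Pou2f3. The tiles given for Pou2f3, Hoxd10, Hoxd11, Otx1 and Nodal were the densest of their genes. At Cdh1 the densest tile (97 cytosines) measured 0.719% in muscle and 6.18% in P5_LCDM. That of Sox7 (100 cytosines) measured 0.673% and 1.32% in the same order, and that of Irx5 (141 cytosines) 0.547% and 4.82%.

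The difference between factor genes and other genes was also present under the threshold and in every library. The median tile level of the 403 tiles was 2.09% in muscle, and in the teratomas 3.64% (P5_2iL), 3.69% (P5_2iL_F), 4.92% (P5_a2iL) and 6.67% (P5_LCDM). For the other 10054 tiles it was 0.681% in muscle, and in the teratomas 0.730% (P5_2iL), 0.757% (P5_2iL_F), 0.868% (P5_a2iL) and 0.806% (P5_LCDM). The medians of the factor genes thus spread over the libraries, while those of the other genes barely did. Over 10% methylation were 41 of the 403 tiles (10.2%) in muscle, and in the teratomas 70 (17.4%) in P5_2iL, 71 (17.6%) in P5_2iL_F, 91 (22.6%) in P5_a2iL, with 122 (30.3%) in P5_LCDM. For the other tiles these shares were 7.31% in muscle, and in the teratomas 9.50% (P5_2iL), 9.36% (P5_2iL_F), 10.2% (P5_a2iL) and 12.4% (P5_LCDM). Over 20%, the share was 11.7% of factor gene tiles against 6.34% of the others in P5_LCDM, and 4.47% against 4.32% in muscle. In P5_2iL it was 5.46% against 5.56%, in P5_2iL_F 4.71% against 5.56%, and in P5_a2iL 4.96% against 5.38%.

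**Figure D4:**
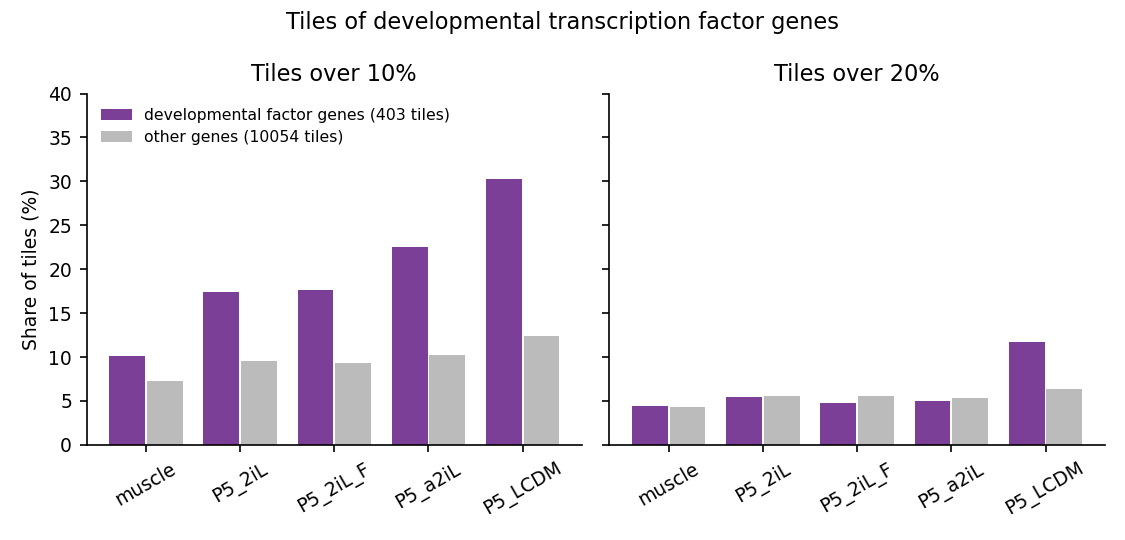
Share of tiles in percent (vertical axis) over 10% (left) and over 20% (right) in each library, for the 403 tiles at developmental transcription factor genes and the 10054 other tiles. Over 10%, the factor genes exceed the others in each library, with 10.2% in muscle and 30.3% in P5_LCDM.

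Of the 452 tiles over 20% in muscle, fewer crossed downward. In P5_2iL 53 were at 20% or less (11.7%), where 2.49% of all autosomal tiles over 20% in muscle were. In P5_2iL_F 54 were (11.9%), against 2.22%, in P5_a2iL 44 (9.73%), against 1.12%, and in P5_LCDM 35 (7.74%), against 1.63%. The downward shares at gene ends were above the genome-wide ones in all 4 pairs, the reverse of the upward direction, with median differences of -20.3 points (P5_2iL), -19.1 (P5_2iL_F), -11.9 (P5_a2iL) and -10.8 (P5_LCDM). On each strand alone the counts were 30 (P5_2iL), 31 (P5_2iL_F), 14 (P5_a2iL) and 18 (P5_LCDM). Equally dense tiles farther than 1 kb from a gene end crossed downward in 7.70% (P5_2iL), 7.83% (P5_2iL_F), 5.04% (P5_a2iL) and 3.47% (P5_LCDM) of 1468. These shares lay between the genome-wide ones and those at gene ends. Starting levels differed, since 132 of the 452 gene-end tiles were over 80% in muscle, against 87351 of 170796 autosomal ones. Their part was not tested. Falls of 25 points or more went the other way. They were 0.249% (P5_2iL), 0.220% (P5_2iL_F), 0.0765% (P5_a2iL) and 0.0765% (P5_LCDM) of all gene-end tiles. Of all autosomal tiles they were 3.09% (P5_2iL), 2.91% (P5_2iL_F), 2.88% (P5_a2iL) and 6.74% (P5_LCDM). Thpo, the thrombopoietin gene, whose promoter is printed above, measured 41.5% in muscle, and in the teratomas 6.37% (P5_2iL), 6.41% (P5_2iL_F), 11.8% (P5_a2iL) and 7.17% (P5_LCDM), at chr16:20734001-20735000. Zscan10, a zinc finger gene of embryonic stem cells, measured 70.6% in muscle, and in the teratomas 1.59% (P5_2iL), 1.24% (P5_2iL_F), 19.96% (P5_a2iL) and 28.2% (P5_LCDM), at chr17:23610001-23611000, at its 3' end, with strands at 78.8% and 48.8% in muscle. All 4 teratomas were under muscle at both genes, and at Zscan10 P5_LCDM stayed over the threshold.

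Some genes of blood cells had tiles over 20% in muscle and lower in teratomas, and the first 4 given here were picked for that. Vav1, a signalling exchange factor of blood cells, measured 40.9% in muscle, and in the teratomas 0.763% (P5_2iL), 3.22% (P5_2iL_F), 19.7% (P5_a2iL) and 20.6% (P5_LCDM), at chr17:57279001-57280000. Lyl1, a transcription factor of blood stem cells, measured 30.4% in muscle, and in the teratomas 0.462% (P5_2iL), 4.68% (P5_2iL_F), 19.7% (P5_a2iL) and 24.3% (P5_LCDM), at chr8:84704001-84705000. Both were lowest in P5_2iL. Unc13d, which releases granules from killer cells and shares its tile with Wbp2, measured 52.9% in muscle, and in the teratomas 0.611% (P5_2iL), 3.84% (P5_2iL_F), 11.5% (P5_a2iL) and 42.1% (P5_LCDM), at chr11:116077001-116078000. Fes, a kinase of myeloid cells, measured 24.5% in muscle, and in the teratomas 0.9601% (P5_2iL), 2.25% (P5_2iL_F), 28.7% (P5_a2iL) and 13.7% (P5_LCDM), at chr7:80387001-80388000. P5_2iL and P5_2iL_F were under 5% at these 4 genes and P5_a2iL and P5_LCDM were between them and muscle, apart from P5_a2iL at Fes, where it was the highest. Of the 14 blood and immune genes with a tile, 5 were over 20% in muscle, and in the teratomas 2 (P5_2iL), 2 (P5_2iL_F), 3 (P5_a2iL) and 4 (P5_LCDM). For all 9294 genes the counts were 344, 432, 431, 425 and 521 in the same order. In the list 3 (P5_2iL), 3 (P5_2iL_F), 2 (P5_a2iL) and 1 (P5_LCDM) genes crossed downward and 0 upward. The list's median level was 3.11% in muscle, and in the teratomas 0.862% (P5_2iL), 1.96% (P5_2iL_F), 5.75% (P5_a2iL) and 7.12% (P5_LCDM), so that by the median P5_2iL and P5_2iL_F were under muscle and P5_a2iL and P5_LCDM above it. Zap70, a kinase of T cell receptor signalling, measured 62.7% in muscle, and in the teratomas 85.99% (P5_2iL), 84.9% (P5_2iL_F), 81.3% (P5_a2iL) and 74.3% (P5_LCDM), at chr1:36781001-36782000. Ikzf1, the lymphoid factor Ikaros, measured 3.58% in muscle, and in the teratomas 10.5% (P5_2iL), 10.3% (P5_2iL_F), 5.77% (P5_a2iL) and 7.85% (P5_LCDM), at chr11:11685001-11686000. Prtn3, a protease of neutrophils, measured 46.02% in muscle, and in the teratomas 25.6% (P5_2iL), 31.3% (P5_2iL_F), 54.5% (P5_a2iL) and 57.6% (P5_LCDM), at chr10:79882001-79883000. Zap70 and Ikzf1 were higher in each teratoma than in muscle, and Prtn3 was higher in P5_a2iL and P5_LCDM. The tiles of Lyl1, Zap70 and Prtn3 touch only the 3' end of a gene, the kind of tile most often over 20% in muscle. How much blood each tissue held was not measured in these files, and its part in these levels was not tested.

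Other tiles under muscle belonged to genes of several kinds. Amigo2, an adhesion protein of neurons, measured 87.6% in muscle, and in the teratomas 31.8% (P5_2iL), 41.4% (P5_2iL_F), 70.7% (P5_a2iL) and 19.7% (P5_LCDM), at chr15:97245001-97246000. Its strand means in P5_2iL_F differed, at 61.4% and 9.05%, so that the level there is uncertain. Cdhr5, a cadherin of intestinal microvilli, measured 63.05% in muscle, and in the teratomas 11.4% (P5_2iL), 6.43% (P5_2iL_F), 35.8% (P5_a2iL) and 19.8% (P5_LCDM), at chr7:141269001-141270000, at its 3' end. Hmg20b measured 66.9% in muscle, and in the teratomas 14.5% (P5_2iL), 17.5% (P5_2iL_F), 68.7% (P5_a2iL) and 60.1% (P5_LCDM), at chr10:81346001-81347000. P5_2iL and P5_2iL_F were low at this 3' end, and P5_a2iL was not under muscle. Foxo6, a forkhead gene of the brain, measured 29.1% in muscle, and in the teratomas 3.34% (P5_2iL), 5.08% (P5_2iL_F), 2.67% (P5_a2iL) and 10.4% (P5_LCDM), at chr4:120268001-120269000. Hmcn2, an extracellular matrix protein, measured 27.02% in muscle, and in the teratomas 0.611% (P5_2iL), 0.0865% (P5_2iL_F), 1.03% (P5_a2iL) and 15.3% (P5_LCDM), at chr2:31460001-31461000, at its 3' end. At both of these all 4 teratomas were at 20% or less. Islr2 measured 36.6% in muscle, and in the teratomas 7.42% (P5_2iL), 10.7% (P5_2iL_F), 25.8% (P5_a2iL) and 12.5% (P5_LCDM), at chr9:58196001-58197000, at its 3' end. Vmn2r29, a pheromone receptor gene of a large family with close copies, had 49.0% in muscle and 17.7% in P5_LCDM, and is uncertain for that reason.

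Lists of genes, 1 tile per gene, placed the crossings among known classes. Among all 9294 genes 3.70% were over 20% in muscle, and in the teratomas 4.65% (P5_2iL), 4.64% (P5_2iL_F), 4.57% (P5_a2iL) and 5.61% (P5_LCDM). Of 20 germline genes 13 were over 20% in muscle, and in the teratomas 14 (P5_2iL), 14 (P5_2iL_F), 13 (P5_a2iL) and 14 (P5_LCDM), and the same 13 were so in all 5. Sycp1, a protein of the meiotic chromosome axis, measured 80.4% in muscle, and in the teratomas 94.9% (P5_2iL), 95.01% (P5_2iL_F), 92.7% (P5_a2iL) and 91.7% (P5_LCDM), at chr3:102935001-102936000. Dazl, a germ cell RNA-binding protein, measured 67.5% in muscle, and in the teratomas 70.6% (P5_2iL), 68.9% (P5_2iL_F), 70.1% (P5_a2iL) and 71.8% (P5_LCDM), at chr17:50293001-50294000. Tex14, which keeps the bridges between germ cells open, measured 73.6% in muscle, and in the teratomas 91.2% (P5_2iL), 93.01% (P5_2iL_F), 86.5% (P5_a2iL) and 85.1% (P5_LCDM), at chr11:87405001-87406000. Muscle was the lowest library at all 3, by the least at Dazl. Dnmt3l, the cofactor of methylation in germ cells, was the remaining one and measured 15.03% in muscle, and in the teratomas 29.7% (P5_2iL), 27.1% (P5_2iL_F), 19.4% (P5_a2iL) and 23.8% (P5_LCDM), at chr10:78043001-78044000. Of the 16 genes of the methylation machinery it was the only one over 20% in any library.

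Imprinted genes carry methylation on one parental copy at their control regions, so that a level near the middle is the known state of those regions. The densest tile of a gene, used here, was not placed relative to its control region, and some were low, as at H13 (0.267% in muscle) and Blcap (1.03%). Of 19 imprinted genes with a tile 5 were over 20% in muscle, and in the teratomas 10 (P5_2iL), 9 (P5_2iL_F), 9 (P5_a2iL) and 9 (P5_LCDM). Peg10 and Sgce share the same tile, and both count in each teratoma. Zrsr1 measured 44.3% in muscle, and in the teratomas 42.9% (P5_2iL), 39.5% (P5_2iL_F), 49.2% (P5_a2iL) and 45.1% (P5_LCDM), at chr11:22972001-22973000. Its levels were near 40% to 50% throughout. Mcts2, which lies inside H13, measured 31.05% in muscle, and in the teratomas 96.7% (P5_2iL), 92.3% (P5_2iL_F), 82.1% (P5_a2iL) and 35.4% (P5_LCDM), at chr2:152687001-152688000. Plagl1, a zinc finger growth regulator, measured 45.6% in muscle, and in the teratomas 45.4% (P5_2iL), 47.6% (P5_2iL_F), 28.3% (P5_a2iL) and 22.3% (P5_LCDM), at chr10:13090001-13091000. Mcts2 was thus far above the middle in P5_2iL, P5_2iL_F and P5_a2iL, and Plagl1 was under it in P5_a2iL and P5_LCDM. Nnat, the neuronatin gene, measured 39.4% in muscle, and in the teratomas 60.6% (P5_2iL), 51.5% (P5_2iL_F), 51.1% (P5_a2iL) and 67.4% (P5_LCDM), at chr2:157560001-157561000. Igf2r, the receptor that clears a growth factor, measured 15.9% in muscle, and in the teratomas 25.7% (P5_2iL), 26.9% (P5_2iL_F), 36.3% (P5_a2iL) and 25.6% (P5_LCDM), at chr17:12769001-12770000. Cdkn1c, a growth-limiting kinase inhibitor, measured 17.5% in muscle, and in the teratomas 31.5% (P5_2iL), 24.6% (P5_2iL_F), 29.3% (P5_a2iL) and 21.5% (P5_LCDM), at chr7:143459001-143460000. Both were under 20% in muscle and over it in each teratoma.

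**Figure D5:**
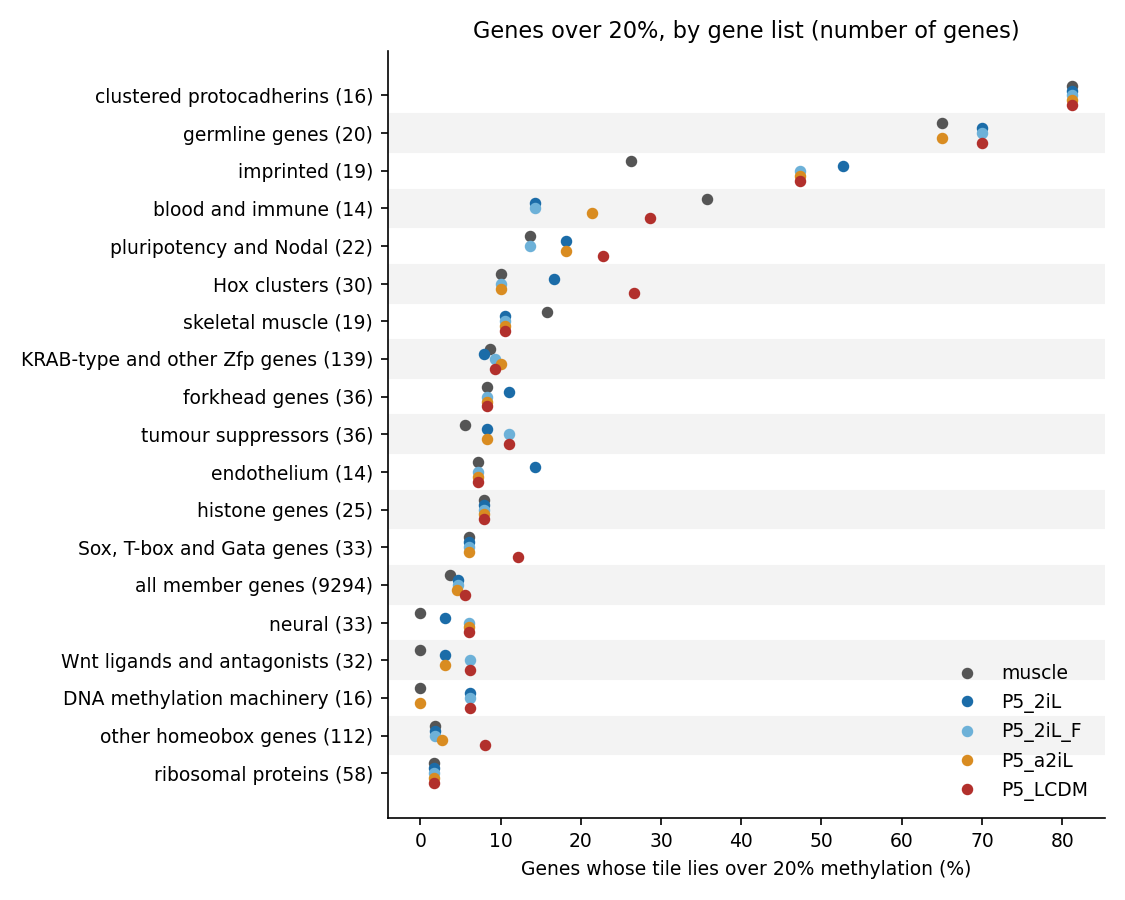
Share of genes in percent (horizontal axis) whose tile is over 20% methylation in each library, 1 point per library, for 18 gene lists and for all 9294 genes, with the number of genes after each name. Protocadherins (81.25% in each library) and germline genes (13 or 14 of 20) stand highest. Ribosomal protein genes are at 1.72% in each library, and the neural, Wnt and methylation machinery lists are at 0 in muscle.

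Of 16 clustered protocadherins, neuronal adhesion genes of which each cell uses a few, 13 were over 20% in each library and the same 13 in all 5. Their median was 37.9% in muscle, and in the teratomas 51.6% (P5_2iL), 50.8% (P5_2iL_F), 57.4% (P5_a2iL) and 54.9% (P5_LCDM). Pcdha7 measured 38.9% in muscle, and in the teratomas 65.9% (P5_2iL), 61.3% (P5_2iL_F), 85.5% (P5_a2iL) and 53.6% (P5_LCDM), at chr18:36974001-36975000. Pcdhga12 measured 44.8% in muscle, and in the teratomas 58.8% (P5_2iL), 52.98% (P5_2iL_F), 71.02% (P5_a2iL) and 80.8% (P5_LCDM), at chr18:37766001-37767000. Copies of this cluster are similar in sequence, so single values are uncertain. Among 30 Hox genes 3 were over 20% in muscle, and in the teratomas 5 (P5_2iL), 3 (P5_2iL_F), 3 (P5_a2iL) and 8 (P5_LCDM). Hoxa5 and Hoxa6 have the same tile, and both count in each library. The tile shared by Hoxa5 and Hoxa6 measured 23.8% in muscle, and in the teratomas 90.7% (P5_2iL), 75.3% (P5_2iL_F), 73.1% (P5_a2iL) and 35.9% (P5_LCDM), at chr6:52204001-52205000, and held the highest level of the 30 genes. Hoxa2 went the other way and measured 22.6% in muscle, and in the teratomas 7.56% (P5_2iL), 7.97% (P5_2iL_F), 11.98% (P5_a2iL) and 6.098% (P5_LCDM), at chr6:52164001-52165000. Of 112 other homeobox genes 2 were over 20% in muscle, and in the teratomas 2 (P5_2iL), 2 (P5_2iL_F), 3 (P5_a2iL) and 9 (P5_LCDM).

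In the remaining lists few genes crossed. Among 33 neural genes 0 were over 20% in muscle, 1 in P5_2iL and 2 in each of the other 3. Of 19 skeletal muscle genes 3 were over 20% in muscle and 2 in each teratoma, and with no expression data the labelled tissues could not be checked by marker levels. Ckm, the muscle creatine kinase, measured 20.3% in muscle, and in the teratomas 15.5% (P5_2iL), 14.01% (P5_2iL_F), 13.1% (P5_a2iL) and 10.97% (P5_LCDM), at chr7:19420001-19421000, at a 3' end. Jph2, a junction protein of muscle membranes, measured 37.2% in muscle, and in the teratomas 71.3% (P5_2iL), 66.8% (P5_2iL_F), 60.3% (P5_a2iL) and 53.02% (P5_LCDM), at chr2:163397001-163398000. Muscle was the highest library at Ckm and the lowest at Jph2. Of 22 pluripotency and Nodal pathway genes 3 were over 20% in muscle, and in the teratomas 4 (P5_2iL), 3 (P5_2iL_F), 4 (P5_a2iL) and 5 (P5_LCDM). Tdgf1, the Nodal co-receptor, measured 39.04% in muscle, and in the teratomas 26.2% (P5_2iL), 17.95% (P5_2iL_F), 27.7% (P5_a2iL) and 54.8% (P5_LCDM), at chr9:110946001-110947000. Foxh1, its nuclear effector, measured 43.4% in muscle, and in the teratomas 67.3% (P5_2iL), 60.96% (P5_2iL_F), 55.5% (P5_a2iL) and 63.1% (P5_LCDM), at chr15:76667001-76668000. At Tdgf1 P5_LCDM was the highest library and P5_2iL_F the lowest, and at Foxh1 muscle was the lowest. Of 36 tumour suppressor genes 2 were over 20% in muscle, and in the teratomas 3 (P5_2iL), 4 (P5_2iL_F), 3 (P5_a2iL) and 4 (P5_LCDM). Of 14 endothelial genes 1, 2, 1, 1 and 1 were over 20% in muscle, P5_2iL, P5_2iL_F, P5_a2iL and P5_LCDM, and Aplnr, the apelin receptor, measured 36.2% in muscle, and in the teratomas 59.9% (P5_2iL), 54.4% (P5_2iL_F), 62.7% (P5_a2iL) and 17.2% (P5_LCDM), at chr2:85137001-85138000. Of 32 Wnt ligands and antagonists 0 were over 20% in muscle, and Wnt8a, an early embryonic ligand, measured 12.6% in muscle, and in the teratomas 54.2% (P5_2iL), 44.7% (P5_2iL_F), 39.1% (P5_a2iL) and 31.8% (P5_LCDM), at chr18:34547001-34548000. P5_LCDM was the lowest library at Aplnr, and muscle was at Wnt8a. Of 36 forkhead genes 3 or 4 were over 20% in each library, and of 33 Sox, T-box and Gata genes 2 were in muscle and 4 in P5_LCDM. Of 4 Pax genes Pax9 was over 20% in P5_LCDM, at 22.8%. Ribosomal protein genes, which every cell uses, were at 20% or less with 1 exception among 58, Rpl10l, a testis copy with 95.4% in muscle and 88.9% in P5_LCDM. Of 25 histone genes the pair H2ac1 and H2bc1, testis histones that share a tile, were over 20%. Of 139 Zfp genes 12 were over 20% in muscle and 11 to 14 in the teratomas, with 11 in all 5.

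Of the 10 tiles with the highest mean over the 5 libraries, 6 lay at a 3' end only. Chst12, a sulphotransferase, measured 96.98% in muscle, and in the teratomas 97.8% (P5_2iL), 94.3% (P5_2iL_F), 99.2% (P5_a2iL) and 96.6% (P5_LCDM), at chr5:140524001-140525000. Dsp, the desmosome protein desmoplakin, measured 97.4% in muscle, and in the teratomas 97.6% (P5_2iL), 97.2% (P5_2iL_F), 96.4% (P5_a2iL) and 91.6% (P5_LCDM), at chr13:38197001-38198000. Srsf4, a splicing factor, measured 94.4% in muscle, and in the teratomas 96.6% (P5_2iL), 98.3% (P5_2iL_F), 97.4% (P5_a2iL) and 97.1% (P5_LCDM), at chr4:131900001-131901000. Klf5, an epithelial zinc finger factor, measured 98.7% in muscle, and in the teratomas 98.3% (P5_2iL), 97.7% (P5_2iL_F), 93.2% (P5_a2iL) and 93.3% (P5_LCDM), at chr14:99313001-99314000. Trim52, whose tile lies at its start, measured 97.99% in muscle, and in the teratomas 97.5% (P5_2iL), 96.9% (P5_2iL_F), 96.99% (P5_a2iL) and 97.7% (P5_LCDM), at chr14:106106001-106107000. These tiles were over 90% in every library, which does not hold for all tiles of their genes. The densest Klf5 tile, with 100 cytosines, measured 0.858% in muscle and 1.63% in P5_LCDM, at chr14:99298001-99299000.

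Promoters of tiles over 20% had fewer CpG sites than those of other tiles. The table holds 20085 promoters of 300 bases with a median of 14 CpG sites, and 6168 of them lie in one of the tiles, with a median of 26. In the 5964 whose tile was at 20% or less in all 5 libraries the median was 26 CpG sites. In the 66 whose tile was over 20% in all 5 it was 17.5, in the 41 over 20% in all 4 teratomas but not muscle it was 20, and in the 34 of P5_LCDM alone it was 19.5. Each methylated class therefore lay between the average promoter and the average tile promoter. The letters GCGGGAA, an E2F-type motif, were searched on both strands and found in 6.05% of all 20085 promoters, in 10.2% of the 6168 and in 12 of the 66 (18.2%). CACGTG, an E-box, was in 7.89% of all, 11.1% of the 6168 and 12 of the 66 (18.2%), and the Slc25a31 promoter above holds both. GGGCGG, an Sp1-type box, was in 47.0% of all, 75.7% of the 6168 and 31 of the 66 (47.0%). TATAAA was in 12.7% of all, 5.03% of the 6168 and 6 of the 66 (9.09%). In the 41 promoters over 20% in all 4 teratomas but not muscle, GCGGGAA was in 1 (2.44%), CACGTG in 5 (12.2%), GGGCGG in 26 (63.4%) and TATAAA in 2 (4.88%). In the 34 of P5_LCDM alone they were in 2 (5.88%), 4 (11.8%), 19 (55.9%) and 1 (2.94%). GGGCGG was thus less frequent in all 3 classes than in the 6168, while GCGGGAA and TATAAA were more frequent in the 66. In the other 2 classes GCGGGAA and TATAAA were in 1 or 2 promoters each, too few to compare with the 6168. A match says only that the letters are there.

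Within a tile, single cytosines differed in level. In the 118 tiles of P5_LCDM alone, the median tile in P5_LCDM had 52.5% of its cytosines at 20% or less, 44.2% between 20% and 80% and 3.20% over 80%. In muscle the median tile of these had 87.5% of their cytosines at 20% or less. In the 84 tiles over 20% in all 4 teratomas, the medians over tiles in P5_2iL were 47.9% of cytosines at 20% or less, 38.9% between and 13.3% over 80%. In the 377 tiles over 20% in all 5 libraries, the median tile had 72.9% of its cytosines over 80% in P5_2iL and 35.7% in muscle. Tiles of the first class thus kept part of their cytosines low beside others at middle levels, and cytosines over 80% were frequent in the last.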

How the data were processed

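The data are reduced representation bisulfite libraries, 1 of muscle and 4 of teratomas. The mm10 build, Bismark and Trim Galore 0.6.4 are named in the submitters' processing notes. The Bismark version and its settings are not given in the sources. The deposited files give the percent methylation of each CpG cytosine, with the 2 strands on separate lines and no read counts, so the depth behind a percent is unknown, no coverage minimum or interval was possible, and the planned use of read counts was dropped. The position column was checked against RefSeq promoters, where 100% of 481827 listed positions fell on a CpG base.

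Tiles of 1 kb, their levels (equal weight per cytosine) and all counts were computed with pandas 2.3.3 and NumPy 2.4.6 in Python 3.11.15 (plots with matplotlib 3.10.9), and the tile code was tested on simulated data. Genes came from RefSeq GRCm38.p6, and gene direction from its promoter table, which covered 16457 of 20665 genes. A tile was named by the nearest gene end. Called levels are over 20%, with 25 points as a second size of difference, and no p-value was computed. Genes named are, per teratoma, the 10 largest upward and 5 largest downward crossings, 10 tiles over 20% in all 4 teratomas but not in muscle, 10 over 20% in all 5, and at most 4 per list, each over 20% on each strand alone in the library that names it. Of these, some are given in the plots alone. The tiles of single-library combinations, Lyl1, Zap70, Ikzf1, Prtn3, the tiles beside that of LOC102637806, Hoxa2, the germline, protocadherin and signalling examples, and the developmental grouping were chosen after their values were seen. Members and the 19 gene lists were chosen with earlier results of these data known, and symbols that a name pattern had wrongly placed among the homeobox genes were removed after seeing the matches. In lists, each gene is represented by its tile with the most shared cytosines, and a tile shared by several genes counts for each. Alternatives were the cytosine minimum, the distance, the threshold, the tile borders, the median over cytosines and each strand alone.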

Additional observations from a re-analysis of the deposited data

How the results depend on the processing

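Each group holds 1 library, so no replicate could be left out. No paired analysis was possible because each group has 1 library and no test was made. Of 15 shares of tiles, each under 10 alternatives, 100 of 150 values lay within 1.5 times the main share, among them all under the 500 bp and 2 kb distances, the borders shifted by 500 bp and each strand alone. The shares over 20% were 12.4% (muscle), 13.9% (P5_2iL), 13.9% (P5_2iL_F), 13.9% (P5_a2iL), 15.2% (P5_LCDM) with 20 cytosines as the minimum and 2.21% (muscle), 3.27% (P5_2iL), 3.13% (P5_2iL_F), 3.08% (P5_a2iL), 4.19% (P5_LCDM) with 60, and with a threshold of 10% they were 7.42% (muscle), 9.80% (P5_2iL), 9.68% (P5_2iL_F), 10.7% (P5_a2iL), 13.1% (P5_LCDM). P5_LCDM had the highest share and muscle the lowest under each of these. The share over the threshold in all 5 was 11.0%, 1.90% and 5.92% under the same settings. Upward crossings, as a share of all tiles, were 3.52% (P5_2iL), 3.31% (P5_2iL_F), 4.12% (P5_a2iL), 6.18% (P5_LCDM) at a threshold of 10% and 1.02% (P5_2iL), 0.975% (P5_2iL_F), 0.813% (P5_a2iL), 1.43% (P5_LCDM) at 30%. With the median over cytosines they were 0.995% (P5_2iL), 0.956% (P5_2iL_F), 0.985% (P5_a2iL). P5_a2iL had the fewest upward crossings as reported and under 8 alternatives, but more than P5_2iL and P5_2iL_F at 10%, and with the median 103 tiles against 100 in P5_2iL_F. Downward crossings were 0.975% (P5_2iL), 0.927% (P5_2iL_F), 0.696% (P5_a2iL), 0.612% (P5_LCDM) with 20 cytosines, 0.234% (P5_2iL), 0.265% (P5_2iL_F), 0.156% (P5_a2iL), 0.156% (P5_LCDM) with 60, 1.14% (P5_2iL), 1.05% (P5_2iL_F), 0.861% (P5_a2iL), 0.545% (P5_LCDM) at 10%, 0.258% (P5_2iL), 0.249% (P5_2iL_F), 0.239% (P5_a2iL) at 30%, and 0.296% (P5_2iL), 0.296% (P5_2iL_F), 0.230% (P5_a2iL), 0.172% (P5_LCDM) with the median. The share over the threshold in all 4 teratomas but not muscle was 1.65% at 10%, 0.488% at 30% and 0.526% with the median. A threshold of 10% or 30% and a lower or higher minimum change by construction which tiles count, and the cause of the other moves was not tested. With no read counts, what depth limits is unknown, and calls within a few points of 20% are within the spread between strands.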
